A study of Mus musculus with 8 samples.

Results

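The genes described here are 37 genes of the amino acid response: 17 genes regulated by, or acting with, the transcription factor ATF4, and 20 genes for cytosolic aminoacyl-tRNA synthetases. They were chosen by gene symbol, with earlier results of these data known, and all 37 are among the 48321 symbols of the count files. RNA-seq was performed on NK cells freshly sorted as CD45+TCRβ-NK1.1+ cells from lung and spleen of C57/Bl6 mice. *Wt* mice were compared with mice carrying a homozygous germline deletion of the *Ccl5* proximal enhancer (*Ccl5* ΔPE/ΔPE, hereafter KO), with 2 libraries in each of the 4 groups (lung *Wt*, lung KO, spleen *Wt* and spleen KO). The deletion was made by Crispr/Cas9 and is present in every cell of the animal, so a difference in NK cells may arise in other cells, and mice of both sexes were used. Whether both libraries of a group derive from different animals is not stated, so p-values cover only the spread between these libraries, which may be technical.

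When an amino acid runs short, uncharged tRNA activates the kinase GCN2 (*Eif2ak4*), which phosphorylates the initiation factor eIF2. Translation then falls in general, while *Atf4* mRNA is translated more efficiently, and ATF4 protein turns on amino acid synthesis, amino acid import and most cytosolic tRNA synthetases. *Asns*, which makes asparagine from aspartate with glutamine as the nitrogen donor, is a classical target of this pathway. Because ATF4 is controlled at translation, the level of its mRNA is not a measure of its activity.

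ATF4 binds DNA together with C/EBP proteins at an element searched here as TGATGNAA on either strand, in RefSeq promoter windows (GRCm38.p6) from 250 bases before to 50 bases after the transcription start. Windows were found for 29 of the 37 genes. The element was present in 9 of these 29 (31.0%) and in 1219 of 27025 genes with a window (4.51%). Part of the list was chosen because ATF4 is known to regulate these genes, so this share is a description. Sites from these genes are shown because the element is the sequence through which ATF4 is known to act. Each line gives 30 bases on the strand of the gene with the element in capitals (TTNCATCA where it lies on the other strand).
*Asns* (chr6:7693214-7693243, - strand): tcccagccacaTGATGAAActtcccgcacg
*Iars* (chr13:49682126-49682155, + strand): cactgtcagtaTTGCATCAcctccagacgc
*Tars* (chr15:11399655-11399684, - strand): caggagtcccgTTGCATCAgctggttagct
*Gars* (chr6:55037960-55037989, + strand): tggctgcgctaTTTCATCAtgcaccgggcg
*Yars* (chr4:129189895-129189924, + strand): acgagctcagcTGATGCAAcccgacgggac
*Chac1* (chr2:119351038-119351067, + strand): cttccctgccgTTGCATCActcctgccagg
*Trib3* (chr2:152344028-152344057, - strand): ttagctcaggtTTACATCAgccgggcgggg
*Slc7a11*, upstream (chr3:50443661-50443690, - strand): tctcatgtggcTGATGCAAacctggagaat
*Slc7a11*, downstream (chr3:50443642-50443671, - strand): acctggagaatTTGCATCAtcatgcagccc

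The element of *Asns* began 23 bases before its start site. Those of *Iars*, *Yars* and *Trib3* lay after the start site, within the first bases of the transcript. The 2 printed stretches of *Slc7a11* overlap. By role, the element was found in 5 of 13 synthetase genes, 2 of 7 regulators, 1 of 7 synthesis enzymes and 1 of 2 transporters with a window. A gene without a match may hold the element outside its window.

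Between 3132963 and 26482366 reads were counted per library, spleen KO 1 being the shallowest and spleen KO 2 the deepest, and 3 reads correspond to 0.113 to 0.958 CPM (counts scaled to a common library total) in a library. *Ccl5*, the gene next to the deleted enhancer, was at 17740 to 18592 CPM (*Wt*) against 3056 to 3263 (KO) in lung, and at 16152 to 17198 (*Wt*) against 2398 to 2617 (KO) in spleen, so each library matched its labelled genotype. All 9 NK markers were counted in every library, and their sum was lower in lung KO (40552 to 41034 CPM) than in lung *Wt* (48075 to 48659) and higher in spleen KO (45867 to 47727) than in spleen *Wt* (37261 to 37828). *Gzma* and *Nkg7* made up most of this sum. Relative to counted reads, *Tbx21*, *Il2rb* and *Prf1* went the other way, higher in lung KO and lower in spleen KO. Summed markers of epithelium (*Sftpc*, *Scgb1a1*, *Epcam*) were at 228 to 231 CPM in lung *Wt* and 318 to 354 in lung KO, and at or below 0.642 in spleen. Relative to counted reads, *Sftpc* was higher in lung KO and *Scgb1a1* was lower. Lung KO was also higher for the summed markers of endothelium (*Pecam1*, *Cdh5*, *Kdr*: 65.6 to 69.3 against 89.9 to 90.5 CPM). This rise was mostly that of *Pecam1*, which was also counted in spleen, where *Cdh5* and *Kdr* had 0 reads. Relative to counted reads, *Cdh5* was lower in lung KO. Summed erythroid markers (*Hba-a1*, *Hbb-bs*, *Alas2*) were at 17.9 to 22.8 CPM in lung *Wt* and 38.3 to 45.2 in lung KO. Summed T cell markers (*Cd3d*, *Cd3e*, *Cd3g*) were at 157 to 160 CPM in spleen *Wt* and 129 to 134 in spleen KO. *Cd3e* fell most, while *Cd3d* overlapped between genotypes relative to counted reads. The part of other cells in the differences below was not tested. The variance between replicates was 1.20 to 1.46 times that of counting alone, and the common coefficient of variation was 2.50%. At this spread the edgeR quasi-likelihood test calls small differences, and most of the 12595 genes tested passed a false discovery rate (FDR) of 0.05 in each comparison of KO with *Wt*. Fold changes also followed GC content: across 12500 genes the Spearman correlation of log2 fold change with GC was 0.289 in lung and -0.272 in spleen, given as a description of values that share libraries. Calls of KO effects that changed with this trend removed are therefore named beside the genes.

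Filtering on low counts left 34 of the 37 genes. *Chac1*, which encodes an enzyme that degrades glutathione, and *Slc7a11*, the cystine importer, had 0 reads in all 8 libraries, which allows at most 0.103 CPM in spleen KO and 0.238 to 0.252 CPM in the other 3 groups when 3 reads over the group are taken as the floor. *Trib3*, a pseudokinase induced by ATF4, had 4 and 7 reads in the lung KO libraries, 4 reads in spleen *Wt* 2 and 0 reads in the other 5 libraries, and was not tested. Floors and intervals of read counts cover counting error only. *Asns* and *Atf5* passed the filter only through lung KO, so their calls there were partly set by the filter.

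*Asns* was counted only in KO libraries. Both lung *Wt* libraries and both spleen *Wt* libraries had 0 reads, lung KO had 14 and 16 reads (2.86 and 2.17 CPM), and spleen KO had 7 and 27 reads (2.28 and 1.03 CPM). Pooled over the group, *Asns* was at 2.45 CPM in lung KO (95% Poisson interval 1.65 to 3.49) and at 1.16 CPM in spleen KO (0.806 to 1.63). Against a floor of 3 reads over the *Wt* group, the pooled level was 9.73-fold higher in lung KO and 4.88-fold higher in spleen KO. These ratios leave out the counting error of the KO reads, so they are not lower bounds. The edgeR adjusted p was 2.9e-06 in lung and 1.2e-04 in spleen, with ranges over the alternatives of 1.02e-08 to 0.00206 and of 1.07e-05 to 0.0266. In a fit of the 4 spleen libraries alone, and with at least 10 counts asked of every library, *Asns* did not pass the filter. Per exon length its level stayed low, at 0.920 CPM per kb in lung KO and 0.606 in spleen KO, against 37.6 and 28.4 for *Atf4*.

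A pattern of 0 reads in 1 genotype was not particular to *Asns*. Of all symbols, 76 had 0 reads in the 4 *Wt* libraries and reads in all 4 KO libraries, and 29 had the opposite pattern. With 0 reads in the 4 *Wt* libraries and at least 30 reads in each KO group, there were 4 symbols. *Asns*, with 30 and 34 reads, was among them. Lung *Wt* libraries had reads on 15232 and 15949 symbols and lung KO libraries on 16533 and 17268. Whether *Asns* changed by a different factor in lung and in spleen could not be estimated, since both *Wt* groups were at 0. Between the KO groups *Asns* was 1.05 higher in lung on the log2 scale (edgeR adjusted p = 0.0167), but the libraries overlapped, and the difference was 0.11 without spleen KO 2 and lost its call without either lung KO library.

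**Figure D1:**
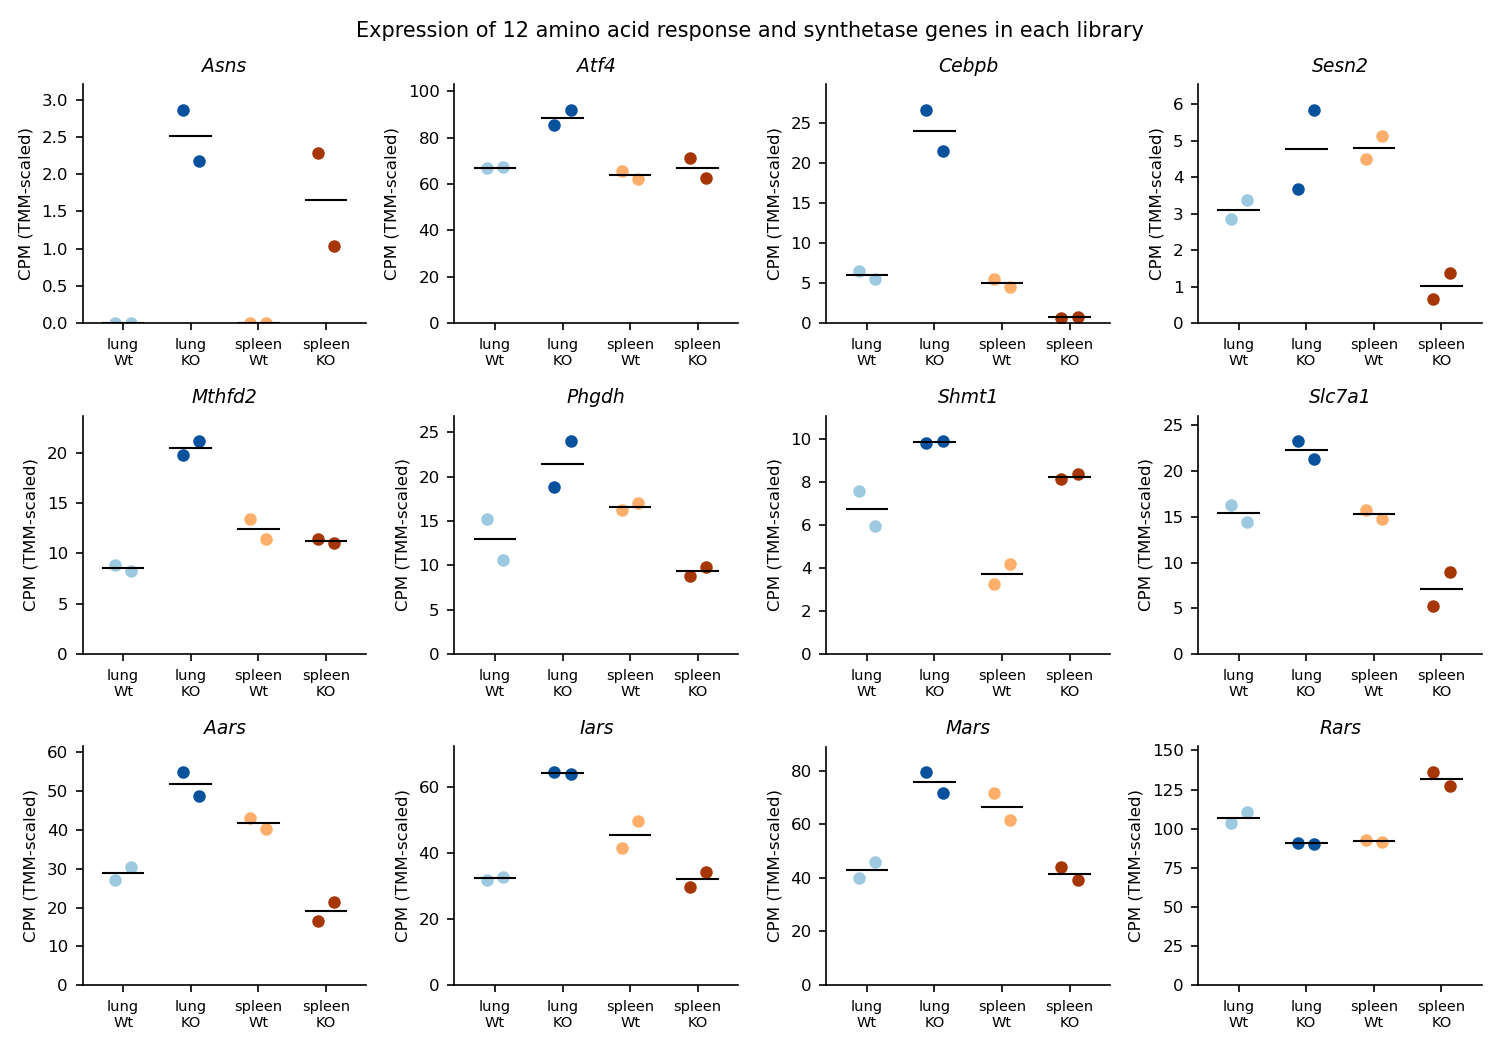
CPM on TMM-scaled library sizes (y axis, from 0) of 12 genes in the 4 groups (x axis). Points are the 2 libraries of a group and the black line is their mean. *Asns* is at 0 in all 4 *Wt* libraries, *Cebpb*, *Aars*, *Iars* and *Mars* are higher in lung KO and lower in spleen KO than in *Wt* of the same organ, and *Rars* runs the other way.

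Of the 34 genes tested, 20 were higher in lung KO than in lung *Wt* (58.8%, against 29.2% of all genes tested), 5 were lower (14.7%, against 26.4%) and 9 did not pass the test. Without *Asns* and *Atf5*, which the filter kept only through lung KO, 18 of 32 were higher (56.2%) and 5 lower (15.6%). The median log2 fold change was 0.33 over the 34 genes and 0.22 without *Asns* and *Atf5*, beside 0.02 over all genes. Setting *Asns* at its ratio to the floor could not move the median of the 34 genes, because *Asns* stays above it either way. In spleen, 9 of 34 genes were higher in KO (26.5%, against 28.2% of all genes), 16 were lower (47.1%, against 28.9%) and 9 did not pass, and the median was -0.16, beside 0.00 over all genes. *Asns* shared its direction in both organs with 2 genes that passed the test in each, *Shmt1* and *Eif4ebp1*, while 4.15% of all genes were higher in KO in both. Another 12 genes were higher in lung KO and lower in spleen KO: *Sesn2*, *Phgdh*, *Shmt2*, *Slc7a1*, *Cebpb*, *Aars*, *Iars*, *Mars*, *Qars*, *Sars*, *Tars* and *Wars*. That is 35.3% of the 34, and 14.2% of all genes had both calls. *Psph*, *Nars* and *Rars* were lower in lung KO and higher in spleen KO (8.8%, against 12.8% of all genes), and *Gars* was lower in both (2.9%, against 3.51%).

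With the GC trend removed, 13 genes were higher (38.2%, against 23.8% of all genes) and 6 lower in lung (17.6%, against 30.8%). In spleen the counts were then 11 higher (32.4%, against 29.2%) and 11 lower (32.4%, against 26.3%), so lower genes no longer outnumbered higher ones there. Of the 12 genes that rose in lung and fell in spleen, 8 kept both calls. These 12 genes had exon GC contents of 46.5 to 67.2% (median 53.4%), and *Psph*, *Nars* and *Rars* had 45.9 to 49.6%. DESeq2 called 13 genes higher in lung, and with a coefficient of variation of 0.2 assumed in place of the measured spread 5 genes were higher in lung (*Aars*, *Asns*, *Cebpb*, *Iars* and *Mthfd2*), while in spleen *Aars*, *Cebpb*, *Sesn2* and *Slc7a1* were lower and *Asns* and *Shmt1* higher. Scaling by library totals shifted the median of all genes in lung to 0.11 and raised the share of all called genes that were higher in lung KO from 52.5% to 63.3%.

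**Figure D2:**
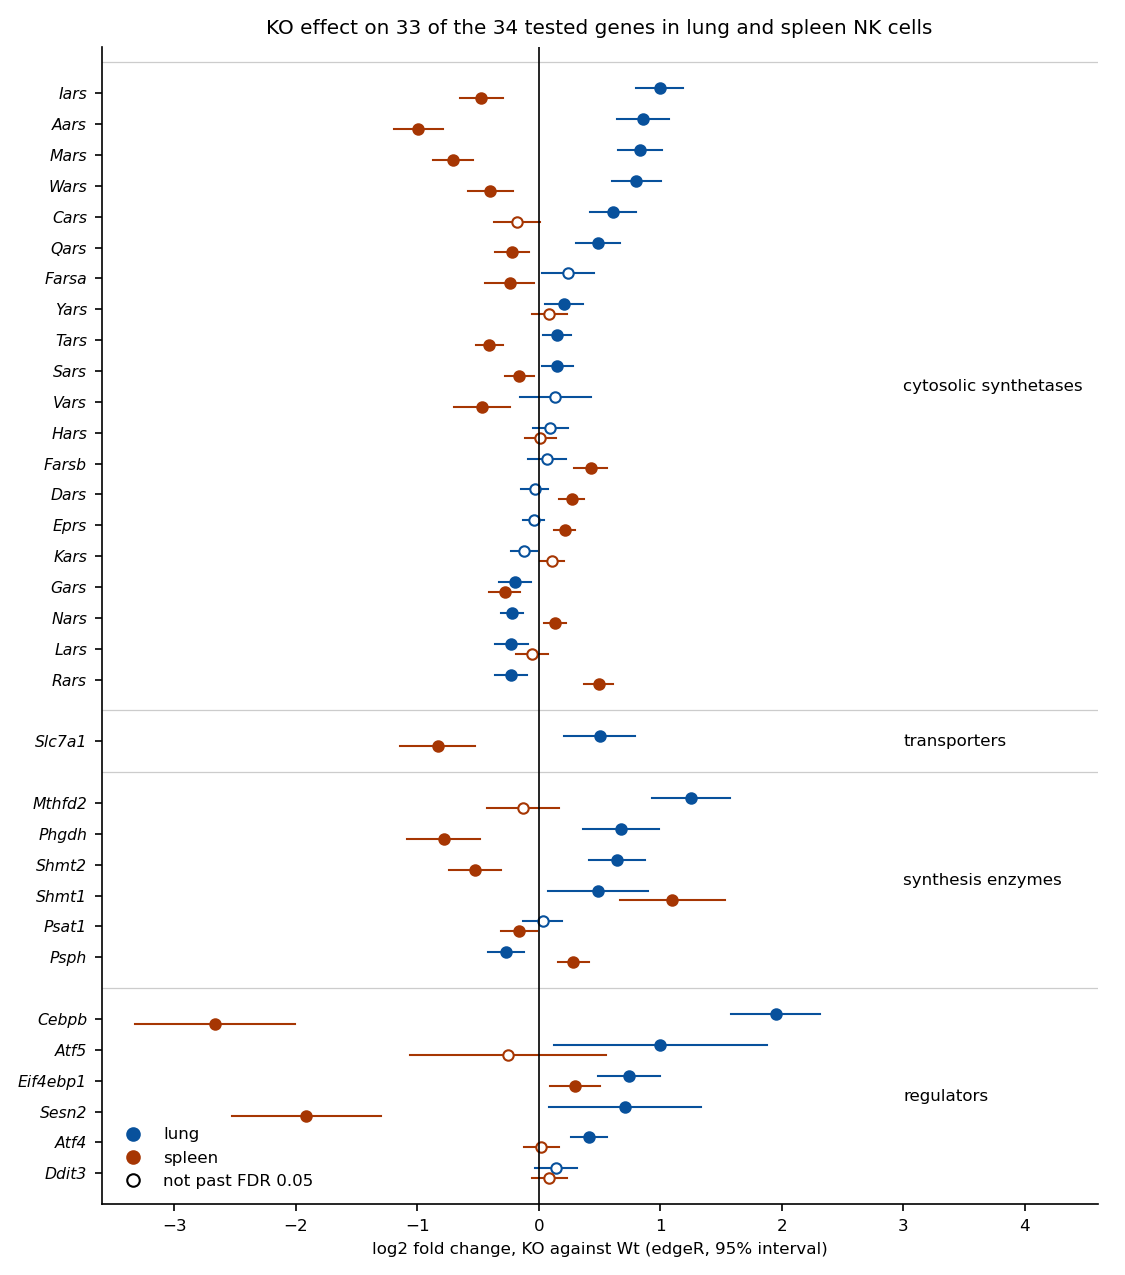
Log2 fold change of KO against *Wt* (x axis) for 33 tested genes, grouped by role, in lung (blue) and spleen (brown), with 95% intervals from edgeR. Filled points passed FDR 0.05. *Asns* is left out because its *Wt* libraries are at 0. *Cebpb* has the largest effect drawn in both organs, with opposite signs (1.95 and -2.67).

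Among the regulators, 5 of the 6 tested were higher in lung KO (4 of 5 without *Atf5*, beside 29.2% of all genes). None was lower there, beside 26.4% of all genes. In spleen 1 was higher (16.7%, against 28.2% of all genes), 2 were lower (33.3%, against 28.9%) and 3 did not pass. With the GC trend removed, only *Cebpb* and *Eif4ebp1* kept their lung calls, while 23.8% of all genes were then higher in lung KO. *Cebpb* encodes C/EBPβ, a partner of ATF4 at the element above. It was at 6.45 and 5.43 CPM (*Wt*) against 26.6 and 21.5 (KO) in lung, and at 5.48 and 4.55 (*Wt*) against 0.652 and 0.765 (KO) in spleen. The spleen KO values were 2 and 20 reads, and the 2 reads of spleen KO 1 are below the floor of 3 reads (0.958 CPM in that library). The *Wt* groups overlapped, and the KO groups lay on opposite sides of them. The log2 fold change was 1.95 ± 0.18 (SE) in lung (edgeR adjusted p = 1.6e-11) and -2.67 ± 0.33 in spleen (edgeR adjusted p = 1e-08). With the GC trend removed both calls held, although *Cebpb* has the highest GC content of the tested genes (67.2%). Summed myeloid markers (*Lyz2*, *Csf1r*, *Adgre1*) were at 16 to 21.0 CPM (*Wt*) against 28.6 to 31.0 (KO) in lung, and at 5.15 to 7.71 (*Wt*) against 6.06 to 8.04 (KO) in spleen. The rise in lung was that of *Lyz2*, while *Csf1r* overlapped between genotypes there relative to counted reads. *Adgre1* was at 0 in all 8 libraries, and the part of myeloid cells in the *Cebpb* difference was not tested. In bulk samples, fewer cells of a type and less RNA per cell cannot be told apart.

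*Sesn2* encodes sestrin 2, a leucine sensor that restrains mTORC1. It was at 2.85 and 3.36 CPM (*Wt*) against 3.68 and 5.84 (KO) in lung, and at 4.49 and 5.13 (*Wt*) against 0.652 and 1.38 (KO) in spleen. The spleen KO values were 2 and 36 reads, so spleen KO 1 was again below the floor of 3 reads, and a value without spleen KO 2 rests on 2 KO reads. The spleen KO libraries were the lowest of all, and the 2 lung KO libraries differed widely. The fall in spleen was -1.91 ± 0.30 (edgeR adjusted p = 1.5e-06, and -2.88 without spleen KO 2), and the rise in lung was 0.71 ± 0.31 (edgeR adjusted p = 0.0481). The lung call was lost with the GC trend removed (0.32), with DESeq2, with replicate number as a block, and without any of 5 single libraries, lung KO 2 giving the lowest value (0.28).

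*Atf4* mRNA was at 66.8 and 67.2 CPM (*Wt*) against 85.4 and 91.9 (KO) in lung, and at 65.8 and 62.2 (*Wt*) against 71.4 and 62.8 (KO) in spleen. It was higher in both lung KO libraries than in the other 6. The log2 fold change was 0.41 ± 0.07 in lung (edgeR adjusted p = 1.2e-05) and 0.02 ± 0.07 in spleen (edgeR adjusted p = 0.841), with a 95% interval of -0.12 to 0.16 in spleen. With the GC trend removed, the lung difference was 0.12 and no longer passed the test (edgeR adjusted p = 0.179), while the spleen difference was 0.25 and passed (edgeR adjusted p = 0.00262). In which organ *Atf4* mRNA was called higher thus depended on this correction. *Ddit3*, which encodes the pro-apoptotic factor CHOP, ranged from 48.9 to 63.7 CPM over the 8 libraries and passed in neither organ (0.14 in lung, 95% interval -0.03 to 0.31, and 0.09 in spleen, -0.06 to 0.23). The exons of *Ddit3* and *Mars* overlap on opposite strands by 68 bases, and the strand setting of the counting is not given, so reads there may be shared.

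*Eif4ebp1*, which encodes the translational repressor 4E-BP1, was at 18.1 and 20.4 CPM (*Wt*) against 30.4 and 32.5 (KO) in lung, and at 28.9 and 24.0 (*Wt*) against 35.5 and 30.8 (KO) in spleen. It was higher in KO in both organs, by 0.74 ± 0.12 in lung (edgeR adjusted p = 4.2e-06) and by 0.30 ± 0.10 in spleen (edgeR adjusted p = 0.0131). The spleen call was lost without spleen *Wt* 2 (0.13), with DESeq2 and with library totals. *Atf5*, a transcription factor whose mRNA is translated under the same control as that of *Atf4*, was near the detection limit, at 0.977 to 3.27 CPM. It was 1.0 ± 0.43 higher in lung KO (edgeR adjusted p = 0.0485), a call lost under most alternatives, the GC correction included, and differed by -0.25 ± 0.40 in spleen (edgeR adjusted p = 0.611).

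Among the synthesis enzymes, 5 of 7 were higher in lung KO (4 of 6 without *Asns*, beside 29.2% of all genes). There 1 was lower (14.3%, against 26.4%) and 1 did not pass. In spleen, 3 were higher and 3 lower (42.9% each, against 28.2% and 28.9% of all genes), and 1 did not pass. With the GC trend removed, *Phgdh* and *Shmt1* lost their lung calls and *Psat1* its spleen call. *Asns*, *Mthfd2* and *Shmt2* stayed higher in lung. *Mthfd2*, the mitochondrial dehydrogenase and cyclohydrolase of the folate cycle, was at 8.81 and 8.27 CPM (*Wt*) against 19.8 and 21.2 (KO) in lung, and at 13.5 and 11.4 (*Wt*) against 11.4 and 11 (KO) in spleen. Lung KO stood above the other 3 groups. Its rise in lung was 1.25 ± 0.16 (edgeR adjusted p = 2.2e-08) and remained called under every alternative in which it was tested, and in spleen it differed by -0.13 (95% interval -0.42 to 0.16, edgeR adjusted p = 0.46).

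*Phgdh*, *Psat1* and *Psph* catalyse the successive steps that make serine from a glycolytic intermediate, and they did not move together. *Phgdh* was at 15.3 and 10.6 CPM (*Wt*) against 18.8 and 24.0 (KO) in lung, and at 16.2 and 17.0 (*Wt*) against 8.80 and 9.86 (KO) in spleen. It rose by 0.68 ± 0.15 in lung (edgeR adjusted p = 3e-04) and fell by 0.78 ± 0.15 on the log2 scale in spleen (-0.78, edgeR adjusted p = 2.5e-05). The lung call was lost with the GC trend removed (0.33) and without lung KO 2 (0.46). *Psph*, the last step, ran the other way: it was at 76.7 and 72.7 CPM (*Wt*) against 62.3 and 62.2 (KO) in lung, and at 72.5 and 75.1 (*Wt*) against 89.9 and 90.4 (KO) in spleen. The differences were -0.27 ± 0.07 in lung (edgeR adjusted p = 0.00186, a call lost without lung *Wt* 1) and 0.28 ± 0.06 in spleen (edgeR adjusted p = 2e-04). *Psat1*, the middle step, was at 50.8 to 59.7 CPM in all libraries, with a difference of 0.03 in lung (95% interval -0.13 to 0.19) and of -0.17 in spleen (edgeR adjusted p = 0.0494), the latter a call lost under most alternatives, the GC correction included. A pseudogene is annotated for *Phgdh*, and exons of *Psph* overlap *Cct6a* on the opposite strand.

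*Shmt1* and *Shmt2* convert serine to glycine in the cytosol and in mitochondria. Cytosolic *Shmt1* was at 7.57 and 5.95 CPM (*Wt*) against 9.81 and 9.91 (KO) in lung, and at 3.24 and 4.20 (*Wt*) against 8.15 and 8.37 (KO) in spleen. Its rise in spleen was 1.10 ± 0.21 (edgeR adjusted p = 3.4e-05). In lung it was 0.49 ± 0.20 (edgeR adjusted p = 0.039), a call lost without any 1 of the 4 lung libraries, with the GC trend removed and with DESeq2. Mitochondrial *Shmt2* was at 22.3 and 27.4 CPM (*Wt*) against 38.0 and 37.2 (KO) in lung, and at 25.7 and 31.0 (*Wt*) against 20.9 and 20.2 (KO) in spleen. It was 0.64 ± 0.11 higher in lung KO (edgeR adjusted p = 1.1e-05) and differed by -0.53 ± 0.11 in spleen (edgeR adjusted p = 7.5e-05), where the call was lost without spleen *Wt* 2 (-0.34). *Shmt1* thus had the sign of *Asns* in both organs and *Shmt2* only in lung.

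*Slc7a1*, the transporter of arginine and lysine, was the tested transporter. It was at 16.3 and 14.5 CPM (*Wt*) against 23.3 and 21.3 (KO) in lung, and at 15.7 and 14.8 (*Wt*) against 5.21 and 8.95 (KO) in spleen. The *Wt* groups of both organs overlapped, with lung KO above and spleen KO below them. The log2 fold change was 0.50 ± 0.15 in lung (edgeR adjusted p = 0.0038, a call lost with DESeq2) and -0.83 ± 0.15 in spleen (edgeR adjusted p = 1.6e-05). Without spleen KO 2 the spleen value was -1.53.

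Of the 20 cytosolic synthetases, which attach amino acids to their tRNAs, all passed the filter. In lung KO, 9 were higher (45.0%, against 29.2% of all genes), 4 were lower (20.0%, against 26.4%) and 7 did not pass. In spleen KO, 5 were higher (25%, against 28.2%), 10 were lower (50.0%, against 28.9%) and 5 did not pass. Their median log2 fold change was 0.14 in lung and -0.17 in spleen. *Iars*, *Aars*, *Mars* and *Wars*, for isoleucine, alanine, methionine and tryptophan, rose most in lung, and all 4 fell in spleen.

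*Aars* was at 27.2 and 30.5 CPM (*Wt*) against 55.0 and 48.7 (KO) in lung, and at 43.1 and 40.3 (*Wt*) against 16.6 and 21.4 (KO) in spleen. The 4 groups did not overlap. Its log2 fold change was 0.86 ± 0.10 in lung (edgeR adjusted p = 1e-08) and -0.99 ± 0.10 in spleen (edgeR adjusted p = 1.2e-10), and both calls held under every alternative. Its annotated exons overlap *Exosc6* on the same strand.
*Iars* was at 31.9 and 32.8 CPM (*Wt*) against 64.6 and 64.1 (KO) in lung, and at 41.4 and 49.7 (*Wt*) against 29.6 and 34.4 (KO) in spleen. Lung KO lay above the other groups, with a rise of 1.0 ± 0.10 (edgeR adjusted p = 3.6e-11) that held under every alternative. In spleen the difference was -0.47 ± 0.09 (edgeR adjusted p = 1.7e-05), a call lost without spleen *Wt* 2 (-0.30).
*Mars* was at 40.1 and 46.0 CPM (*Wt*) against 79.5 and 71.8 (KO) in lung, and at 71.6 and 61.6 (*Wt*) against 44.0 and 39.1 (KO) in spleen. Lung KO lay above the other 3 groups, though only just above spleen *Wt*. The differences were 0.83 ± 0.09 in lung (edgeR adjusted p = 7e-10) and -0.71 ± 0.08 in spleen (edgeR adjusted p = 3.1e-09).

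*Wars*, which is also an interferon-induced gene, was at 33.1 and 46.8 CPM (*Wt*) against 65.2 and 66.5 (KO) in lung, and at 52.1 and 51.3 (*Wt*) against 35.5 and 39.8 (KO) in spleen. The 2 lung *Wt* libraries differed most. It was 0.80 ± 0.10 higher in lung KO (edgeR adjusted p = 1.5e-08) and differed by -0.40 ± 0.09 in spleen (edgeR adjusted p = 2.8e-04). *Cars* (cysteine) and *Qars* (glutamine) rose in lung by 0.61 ± 0.09 and 0.49 ± 0.09. In spleen *Qars* differed by -0.22, a call lost with the GC trend removed, and *Cars* did not pass. The other rises in lung were small, at 0.20 for *Yars* (tyrosine) and 0.15 each for *Sars* (serine) and *Tars* (threonine). With the GC trend removed *Sars* was at -0.07 and *Yars* at -0.01 in lung, in spleen *Sars* lost its call (-0.01) and *Yars* was called higher (0.22, edgeR adjusted p = 0.00743), and each of the 3 calls was lost without at least 2 of the lung libraries and with DESeq2. *Tars* fell clearly in spleen, from 200 and 176 CPM in *Wt* to 136 and 141 in KO (-0.41 ± 0.06, edgeR adjusted p = 9.5e-08).

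*Rars*, for arginine, had the opposite pattern. It was at 103 and 110 CPM (*Wt*) against 90.7 and 90.3 (KO) in lung, and at 92.7 and 91.3 (*Wt*) against 136 and 127 (KO) in spleen. Spleen KO stood above the other groups, with a rise of 0.49 ± 0.06 (edgeR adjusted p = 6e-09), and lung KO was lower than lung *Wt* by -0.23 ± 0.07 (edgeR adjusted p = 0.00348). *Nars*, for asparagine, the amino acid that *Asns* makes, was the most abundant synthetase and moved little: it was at 408 and 442 CPM (*Wt*) against 373 and 355 (KO) in lung, and at 321 and 314 (*Wt*) against 338 and 353 (KO) in spleen. The differences were -0.22 ± 0.04 in lung (edgeR adjusted p = 7.7e-05) and 0.14 ± 0.04 in spleen (edgeR adjusted p = 0.0099), the latter a call lost without spleen *Wt* 2, without spleen KO 2 and with library totals. *Gars* (glycine) was lower in KO in both organs, by -0.20 in lung and -0.28 in spleen, and *Lars* (leucine) was lower in lung, by -0.23. With library totals the lung calls of *Gars*, *Lars* and *Rars* were lost.

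*Farsb* rose in spleen by 0.43 ± 0.07 (edgeR adjusted p = 1.6e-06) while *Farsa*, the other subunit of the phenylalanine enzyme, differed by -0.24 ± 0.10 (edgeR adjusted p = 0.039, lost with the GC trend removed). *Dars* (aspartate) and *Eprs* (glutamate and proline) rose in spleen by 0.27 and 0.21. *Vars* (valine) differed by -0.47 in spleen, a call lost with the GC trend removed. None of these 5 genes passed in lung. *Hars* (histidine) and *Kars* (lysine) passed in neither organ, but with the GC trend removed *Kars* was called lower in lung KO (-0.13, edgeR adjusted p = 0.0325).

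**Figure D3:**
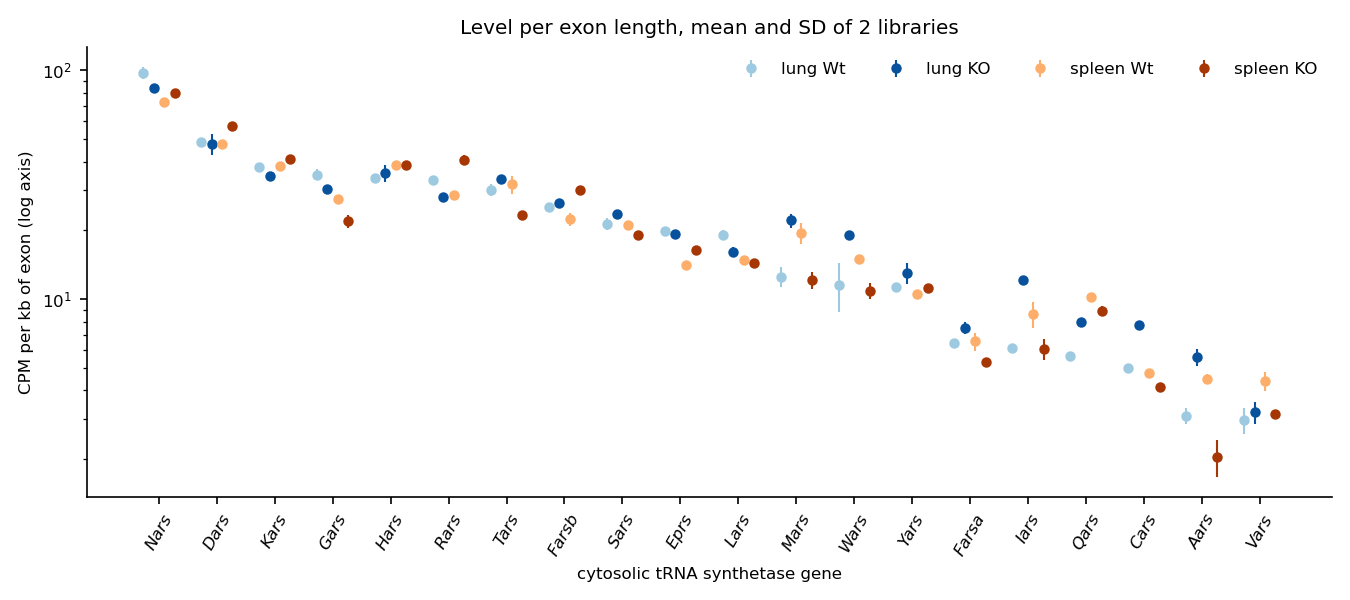
Level of the 20 cytosolic synthetase genes per exon length (y axis, CPM per kb, log axis), ordered by lung *Wt*, in the 4 groups. Points are means and bars the SD of 2 libraries. *Nars* is highest in every group (73.0 to 97.6 CPM per kb), and *Aars* and *Vars* are the lowest.

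Per exon length, the synthetases spanned from 2.96 (*Vars*) to 97.6 CPM per kb (*Nars*) in lung *Wt*. *Dars* followed at 48.7 and *Kars* at 37.7, and *Gars*, *Hars* and *Rars* at 33.1 to 35 were not separated beyond their spread. The genes that rose most in lung KO were in the lower part of this order, with *Mars* at 12.6, *Wars* at 11.6, *Iars* at 6.14 and *Aars* at 3.11 CPM per kb in lung *Wt*. *Atf4* was at 28.4 and *Cebpb* at 3.95 CPM per kb in the same group. This order depends on lengths that merge all annotated exons of a gene and may exceed the expressed transcript. They were 18102 bases for *Eprs*, which was at 358 CPM but 19.8 CPM per kb, and 9282 for *Aars*.

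**Figure D4:**
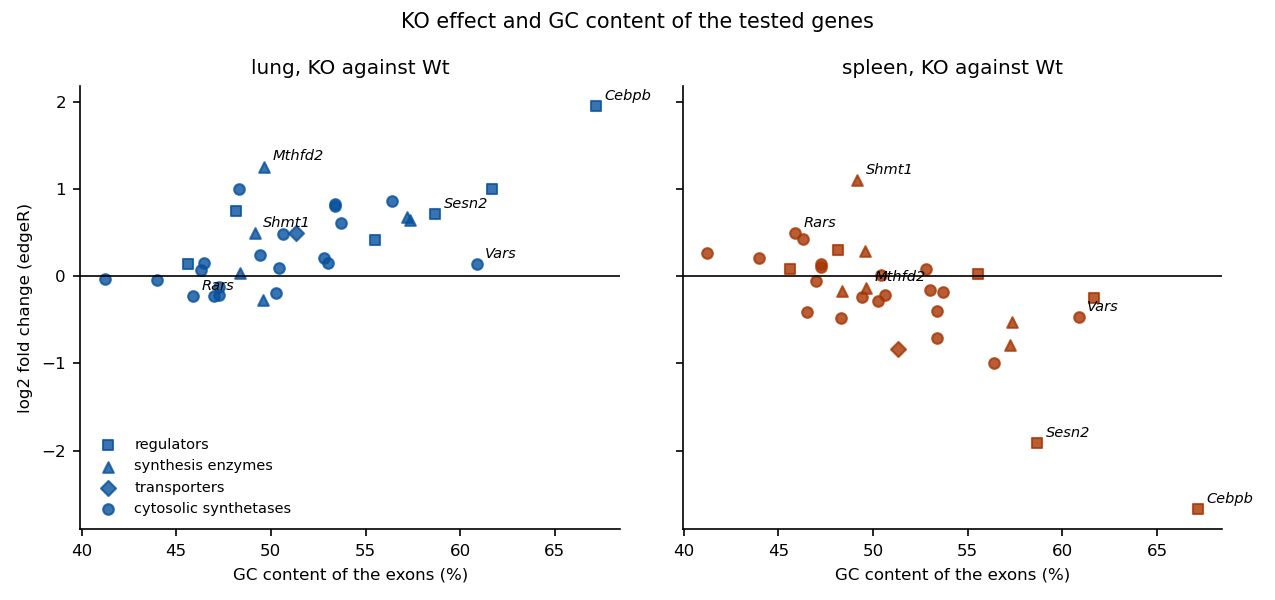
Log2 fold change of KO against *Wt* (y axis, edgeR) against the GC content of the exons (x axis, %) for 33 tested genes (without *Asns*) in lung (left) and spleen (right); the shape of a point gives the role of the gene. GC-rich genes such as *Cebpb* (67.2%) lie above 0 in lung and below 0 in spleen.

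The difference between the KO effects in lung and spleen was then tested directly. It passed in 25 of 34 genes, of which 18 had the higher effect in lung (32.5% of all genes tested) and 7 the higher effect in spleen (29.0%). The median difference was 0.46 on the log2 scale, beside 0.03 over all genes. *Cebpb* differed by 4.62 ± 0.38 (edgeR adjusted p = 2.8e-13), *Sesn2* by 2.62 ± 0.43 (edgeR adjusted p = 2e-06; 3.58 without spleen KO 2) and *Aars* by 1.85 ± 0.14 (edgeR adjusted p = 8.8e-14). In spleen KO 1, *Cebpb* and *Sesn2* had 2 reads each. *Rars* differed by -0.72 ± 0.09 (edgeR adjusted p = 6.4e-09). With the GC trend removed *Atf4* (-0.13), *Sars* (-0.05) and *Vars* (-0.19) changed sign, *Dars* lost its call (-0.07) and *Shmt1* gained one (-0.72). Without spleen KO 2 the difference for *Slc7a1* was 2.03, against 1.33 with all libraries. With a coefficient of variation of 0.2 assumed, 9 genes had the higher effect in lung (*Aars*, *Cebpb*, *Iars*, *Mars*, *Mthfd2*, *Phgdh*, *Sesn2*, *Slc7a1* and *Wars*). Library totals moved the median of all genes to 0.19 and the share of called genes with the higher effect in lung from 52.9% to 63.4%.

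Organs were also compared within a genotype. In *Wt* mice, lung was higher for 6 of 34 genes (17.6%, against 27.7% of all genes) and lower for 11 (32.4%, against 29.3%), with a median of 0.00. With the GC trend removed, 11 genes were higher and 9 lower (32.4% and 26.5%), beside 3586 and 3485 of all genes, so lower genes no longer outnumbered higher ones. *Qars* was lowest in lung relative to spleen (-0.84 ± 0.09, edgeR adjusted p = 1.1e-10). Without lung *Wt* 1, only 5 genes were lower, and library totals moved the share of called genes that were higher in lung from 48.6% to 36.9%. In KO mice, lung was higher for 22 of 34 genes (64.7%, against 33.9%) and lower for 6 (17.6%, against 31.7%), with a median of 0.36. Without *Asns* and *Atf5* these counts were 20 of 32 (62.5%) and 6 (18.8%). With the GC trend removed, 18 of 34 were higher and 9 lower (52.9% and 26.5%), beside 3582 and 4557 of all genes. *Cebpb* had the largest difference (4.94 ± 0.22, edgeR adjusted p = 6.8e-21), with 2 and 20 reads in the spleen KO libraries. These 2 comparisons share their libraries with those of KO against *Wt*.

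Among 14 other genes regulated by ATF4 that could be tested of 26 listed, 8 were higher (57.1%, against 29.2% of all genes) and 2 lower (14.3%, against 26.4%) in lung KO, with a median of 0.58. In spleen KO 3 were higher (21.4%, against 28.2%) and 8 lower (57.1%, against 28.9%), with a median of -0.53. With the GC trend removed, *Herpud1* was called lower in lung (-0.23) and higher in spleen (0.18). *Slc1a5*, the glutamine transporter, was at 76.1 and 73.9 CPM (*Wt*) against 198 and 178 (KO) in lung, and at 139 and 138 (*Wt*) against 53.4 and 52.3 (KO) in spleen. It rose by 1.31 ± 0.06 in lung (edgeR adjusted p = 2.6e-19) and differed by -1.40 ± 0.06 in spleen (edgeR adjusted p = 4.1e-20). *Slc3a2*, the heavy chain of amino acid exchangers, had the same signs (0.60 and -0.43). So did *Ddit4*, an inhibitor of mTORC1 (0.36, lost with the GC trend removed, and -1.18), and *Aldh18a1*, the enzyme that begins proline synthesis (0.70 and -0.97). *Cebpg*, a dimer partner of ATF4, had the opposite signs, at -0.77 in lung and 0.59 in spleen.

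Of 14 genes of the eIF2 kinases and the eIF2 cycle, 6 were higher and 5 lower in lung KO (42.9% and 35.7%, against 29.2% and 26.4% of all genes). In spleen KO 4 were higher and 4 lower (28.6% each), close to those of all genes (28.2% and 28.9%). With the GC trend removed, *Gcn1l1*, *Eif2b1* and *Eif2b4* lost their higher calls in lung, and *Eif2ak3* and *Eif2b2* were called lower there. In spleen *Eif2b1* and *Eif2b2* were then called higher. *Eif2ak4*, which encodes GCN2, was at 7.69 and 6.21 CPM (*Wt*) against 4.90 and 4.89 (KO) in lung, and at 2.24 and 2.68 (*Wt*) against 8.80 and 9.48 (KO) in spleen. It rose by 1.88 ± 0.23 in spleen (edgeR adjusted p = 1e-08) and differed by -0.55 ± 0.24 in lung (edgeR adjusted p = 0.0441). *Impact*, an inhibitor of GCN2, rose in both organs (1.16 in spleen and 0.51 in lung). *Ppp1r15a*, which encodes the GADD34 subunit that dephosphorylates eIF2, rose in lung and fell in spleen (0.81 and -0.44, the latter lost with the GC trend removed), and *Eif2s1*, the eIF2α subunit itself, did the opposite (-0.26 and 0.35). Phosphorylation of eIF2 and ATF4 protein were not measured in these libraries.

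Mitochondrial synthetases, the closest list to the cytosolic ones, had 5 of 16 tested genes higher and 2 lower in lung KO (31.2% and 12.5%, against 29.2% and 26.4% of all genes), and 3 higher and 6 lower in spleen KO (18.8% and 37.5%, against 28.2% and 28.9%). With the GC trend removed, *Fars2* and *Lars2* lost their higher calls in lung. In spleen *Nars2* then lost its higher call and *Vars2* its lower call. *Rars2* differed by -0.46 ± 0.07 in lung and rose by 0.35 ± 0.07 in spleen, the signs of *Rars*. Of the 3 scaffold genes of the multisynthetase complex, 1 was lower in lung KO (33.3%, against 26.4%) and 2 were higher in spleen KO (66.7%, against 28.2%). With the GC trend removed, *Aimp1* lost its lung call (-0.03) and *Eef1e1* its spleen call (0.10), and *Aimp1* was called lower in spleen (-0.22).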

How the data were processed

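The authors sorted NK cells, sequenced RNA with reads of 50 bp, aligned them to mm10 with HISAT2 2.1.0 and counted them on genes with HTSeq (0.11.1 per the submitters' processing notes). The deposited values are raw read counts per gene symbol, 1 file per library. The strand setting, the annotation and the treatment of reads with several positions are not given in the sources used here. Categories of uncounted reads (52.7 to 55.0% of reads on no gene) were left out of library sizes. The sample titles gave organ, genotype and replicate number.

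The fit used edgeR 4.0.16 in R 4.3.3 (filterByExpr, TMM, 1 mean per group over all 8 libraries, quasi-likelihood test, Benjamini-Hochberg adjustment over 12595 genes, FDR 0.05). SE were derived from the F statistic. Levels per length used merged exons of GENCODE on the same build. Alternatives were DESeq2 1.42.0, RLE scaling, library totals, a minimum of 10 counts in every library or no filter at all, a replicate block, an offset for GC content (spline with 5 degrees of freedom), an assumed coefficient of variation of 0.2, fits of a comparison's own libraries, and leaving out each library. The procedure was tested on simulated data. The promoter sites of 1 of the genes with the element are not reported here. The genes and lists were chosen with earlier results of these data known. Besides the 37 genes, genes were named from the lists of eIF2 genes, other ATF4-regulated genes, mitochondrial synthetases and scaffold genes. Some have, in a direction of a KO comparison, 1 of the 3 smallest p-values among these lists. The others have a KO call that changed with the GC trend removed.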

Additional observations from a re-analysis of the deposited data

Results flagged for a closer look

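For 25 genes the test of the difference itself gave a KO effect that was not the same in lung and spleen (edgeR, FDR 0.05). The values are the log2 effect in lung minus that in spleen, and no explanation was tested. The regulators were *Cebpb* (4.62), *Sesn2* (2.62), *Eif4ebp1* (0.44) and *Atf4* (0.39). Among the synthesis enzymes and the transporter they were *Phgdh* (1.46), *Mthfd2* (1.38), *Slc7a1* (1.33), *Shmt2* (1.17) and *Psph* (-0.56). Synthetases with the higher effect in lung were *Aars* (1.85), *Mars* (1.54), *Iars* (1.47), *Wars* (1.20), *Cars* (0.79), *Qars* (0.71), *Vars* (0.61), *Tars* (0.56), *Farsa* (0.48) and *Sars* (0.31). Those with the higher effect in spleen were *Rars* (-0.72), *Farsb* (-0.36), *Nars* (-0.35), *Dars* (-0.30), *Eprs* (-0.25) and *Kars* (-0.23). Groups held 2 libraries each, so single libraries were not tested as outliers.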

How the results depend on the processing

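The number of genes called higher in lung KO was 20 of 34 (58.8%, against 29.2% of all genes). It was 13 with DESeq2, 13 with the GC offset (38.2%, against 23.8%), 13 with the GC offset and the replicate block, and 5 when a coefficient of variation of 0.2 was assumed. Calls over all genes move with the setting too: 3674 were higher in lung KO, 2997 with the GC offset and 4415 with library totals. Where no share of all genes is given, the counts below describe the setting and are not a result about these genes. The 5 genes called lower were 2 with library totals and 0 with the assumed variation. With that assumption the spleen counts were 2 higher and 4 lower (from 9 and 16), those of the difference between organs 9 and 0 (from 18 and 7), those of lung against spleen in *Wt* 0 and 1 (from 6 and 11), and in KO 11 and 0 (from 22 and 6). At an unadjusted p under 0.05 (edgeR likelihood ratio test) these counts of 0 were also 0, except for 1 gene higher in *Wt* lung. For the difference between organs, library totals left 3 genes with the higher effect in spleen. For *Wt* lung against spleen, the GC offset gave 11 genes higher and 9 lower, and DESeq2 gave 6 lower.

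Leaving out each library gave 15 to 19 genes higher and 4 to 5 lower in lung KO, 7 to 10 and 11 to 15 in spleen KO, 15 to 18 and 6 to 7 for the difference, 5 to 6 and 5 to 12 between *Wt* organs (5 lower without lung *Wt* 1), and 17 to 22 and 4 to 6 between KO organs.

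These effects changed sign. With the GC offset, alone and with the block, lung *Sars* was -0.067 and -0.065 and lung *Psat1* -0.016 and -0.011, spleen *Atf5* was 0.10 and 0.14, and the difference between organs was -0.13 and -0.13 for *Atf4*, -0.052 and -0.0497 for *Sars* and -0.19 and -0.18 for *Vars*. Lung *Yars* was -0.0075 with the offset, and *Yars* between KO organs -0.014 with the offset and block. Spleen *Atf4* was -0.047 with library totals, -0.035 without spleen *Wt* 2 and -0.014 without spleen KO 1, up to 0.17 without another library, and 0.25 and called higher with the GC offset, alone or with the block. Lung *Psat1* was -0.015 without lung *Wt* 1, and up to 0.0496 without another library. The cause was not tested.

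Whether lung and spleen libraries with the same replicate number came from the same mouse is not stated. Across organs, the deviations of such libraries over 5095 genes correlated at 0.005 in *Wt* and at -0.08 in KO. Across genotypes, the values were -0.01 in lung and 0.17 in spleen. Correlations this weak did not show pairing by replicate number, but they cannot exclude it. With the replicate block 18 genes were higher and 5 lower in lung KO (*Atf5* and *Sesn2* lost their calls), and 9 higher and 15 lower in spleen KO (*Psat1* lost its call).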
